A study of Mus musculus with 8 samples.

Results

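The comparison asks whether oral sudachitin altered the difference between day and night in the liver transcriptome of mice on a high-fat diet. Sudachitin is a polymethoxyflavone, a plant flavonoid that carries several methoxy groups, and the title of the series places it among modulators of the circadian clock. All 8 of the 8 sequenced livers enter the comparison, in 4 groups of 2 mice. Every mouse was a male C57BL/6J bought at 4 weeks of age, kept on a diet with 45% of its calories from fat and gavaged every other day between ZT8 and ZT10, where ZT (zeitgeber time) counts hours from lights on. The gavage held PBS in control mice, from a cohort of 11, and sudachitin at 100 mg per kg body weight in treated mice, from a cohort of 12. The mice were 30 weeks old when livers were taken, either at ZT6 in the light phase or at ZT18 in the dark phase. The diet and the handling by gavage are thus common to all 4 groups, and no group on ordinary chow or without gavage was part of the comparison. With livers at 2 times only, neither the phase nor the amplitude of a rhythm can be read from these data.

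The quantity described throughout is the interaction of treatment and time. It is the log2 ratio of ZT18 to ZT6 in sudachitin livers minus the same log2 ratio in control livers. A positive value means that the ZT18-over-ZT6 ratio was higher in sudachitin than in control livers, whichever sign the 2 ratios have. Levels are given in CPM, a library's exon counts scaled to a common total with TMM factors, and in each sentence that lists them they stand in the order replicate 1, replicate 2.

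The liver clock is a feedback loop in which BMAL1 and CLOCK switch on the genes of their own repressors, the PER and CRY proteins, and of the nuclear receptors REV-ERB alpha and beta, which in turn repress the BMAL1 gene. Feeding, insulin and growth hormone act on the liver on top of this loop, and in mice, which eat mostly at night, many metabolic genes follow both. The unfolded protein response is a further program with daily swings in liver. In it, stress in the endoplasmic reticulum activates the sensors IRE1, PERK and ATF6, and the factors XBP1, ATF4 and ATF6 then switch on chaperones and folding enzymes.

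Libraries held 13914116 to 17759630.5 exon counts, and 14506 of 55421 transcripts passed the filter on low counts. The 9 hepatocyte markers summed to 92819 to 112370 CPM per library, and 8 of 11 markers of exocrine pancreas were at 0 in every library. One library differed most from the rest. Control ZT18 replicate 1 held either the top or the bottom value of all 8 in 38.2% of genes, against 17.4% to 27.7% for each of the other 7. Values without it are given beside many of the results. The sample titles carry codes whose meaning is not given in the sources used here. No start of a code occurs in more than 1 group, and the pair of ZT6 mice of each treatment share a start, so cages or handling, if the codes mark them, cannot be told apart from the groups. In whole liver, fewer cells of a type and less RNA per cell cannot be told apart either. Since the libraries carry no strand information, counts of a gene and of an antisense partner cannot be told apart, and 4370 of the 14506 tested transcripts have an exon that overlaps one on the opposite strand. Partners of several genes are named below.

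No gene passed for the interaction. By edgeR's quasi-likelihood test with Benjamini-Hochberg adjustment over 14506 transcripts, 0 (0%) had an adjusted p under 0.05, and the smallest adjusted p was 0.623. At an unadjusted p under 0.05 there were 548 transcripts (3.78%), 313 with a positive value (2.16% of those tested) and 235 with a negative one (1.62%), where 5% of the tested transcripts would be 725.3. DESeq2 called 12 of the 11693 transcripts to which it gave an adjusted p (0.103%), all with positive values. Values lay above 0 in 7178 transcripts and their median was -0.004. Without control ZT18 replicate 1 the edgeR count stayed at 0, with 465 transcripts at an unadjusted p under 0.05, of which 282 were positive (1.94%) and 183 negative (1.26%).

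These numbers come with a precision that 2 mice per group allow. The SE of an interaction value had a median of 0.29 on the log2 scale, with a 10th to 90th percentile of 0.18 to 0.74, and the 95% interval reached a median of 0.67 to either side. A value smaller than that could not be told from 0 for a typical gene, even before adjustment over all transcripts. For the same error, passing after adjustment takes a larger change. The gene D230025D16Rik, at 1.21 with an SE of 0.16, still had an adjusted p of 0.623 by edgeR's quasi-likelihood test. Values beyond 1 in either direction were found in 896 transcripts (6.18%). As a description of how the mice lay, each treatment gives 4 ratios of a ZT18 mouse to a ZT6 mouse. All 4 sudachitin ratios were above all 4 control ratios in 1062 transcripts (7.32%), and all 4 were below in 959 (6.61%).

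For time of day, edgeR called 534 transcripts in a model with additive terms. It was fitted to the same 8 libraries and favours genes whose day-night difference is alike in both treatments, so the sizes that follow are a description of a set chosen in that way. The absolute log2 ratio of ZT18 to ZT6 was larger in sudachitin than in control livers for 250 of them (46.8%), with a median of 0.65 in control and 0.63 in sudachitin livers. An unadjusted interaction p under 0.05 was found for 38 of the 534 (7.12%), beside 3.78% of all tested transcripts. Leaving out control ZT18 replicate 1 gave 241 (45.1%) and 36, and leaving out any 1 library gave 43.8% to 49.3% with the larger difference in sudachitin livers.

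The core clock showed no common direction. Of 19 genes tested, 9 had interaction values above 0 and 10 below, with a median of -0.02, and no gene passed over all genes. At an unadjusted p under 0.05 lay Per1 and Nr1d2 with positive values and Npas2 and Cry1 with negative ones, beside 2.16% and 1.62% of all transcripts. All 4 sudachitin ratios were above the control ratios in 3 genes and below them in 2, beside 7.32% and 6.61%. Without control ZT18 replicate 1, 8 values lay above 0 and the median was -0.09.

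Per1 encodes a PER repressor that light and hormones can induce quickly. It read 11.1 and 8.30 CPM at ZT6 and 12.2 and 8.71 at ZT18 in control livers, and 7.62 and 6.68 at ZT6 and 15.4 and 17.1 at ZT18 in sudachitin livers. Control times overlapped, whereas both sudachitin ZT18 livers were above every other liver. The interaction was 1.07 (95% interval 0.38 to 1.75), and 1.33 without control ZT18 replicate 1.

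Cry1 encodes the CRY repressor that acts late in the cycle. Control livers had 9.64 and 11.6 CPM at ZT6 and 45.1 and 46.3 at ZT18, and sudachitin livers had 12.5 and 15.2 at ZT6 and 40.9 and 39.0 at ZT18. At each time the 2 treatments did not overlap, with sudachitin livers higher at ZT6 and lower at ZT18. The interaction was -0.58 (95% interval -1.03 to -0.13).

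Nr1d2 encodes REV-ERB beta. It read 70.7 and 64.6 CPM at ZT6 and 23.0 and 26.3 at ZT18 in control livers, against 62.4 and 70.6 at ZT6 and 33.8 and 32.9 at ZT18 in sudachitin livers. The treatments overlapped at ZT6 and not at ZT18, where sudachitin livers were higher, and the interaction was 0.46 (95% interval 0.05 to 0.87). For its paralog Nr1d1, which encodes REV-ERB alpha and lies antisense to Thra, the day-night ratio was -4.47 in control and -4.04 in sudachitin livers on the log2 scale. The interaction of Nr1d1 was 0.42 with a 95% interval of -0.25 to 1.1, so its treatments did not differ beyond their error.

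Npas2, which encodes a partner of BMAL1 that can stand in for CLOCK, had low counts. It read 2.73 and 1.96 CPM at ZT6 and 5.19 and 2.11 at ZT18 in control livers, and 2.15 and 4.71 at ZT6 and 0.83 and 0.82 at ZT18 in sudachitin livers. Both sudachitin ZT18 livers were below all others, and control ZT18 replicate 1 was the highest. The interaction was -2.69 (95% interval -4.37 to -1.02), and -1.88 without that library.

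The remaining clock genes described here had intervals that held 0. Arntl, the BMAL1 gene, was at -0.10 (95% interval -0.69 to 0.49) and Clock at 0.17 (-0.29 to 0.62). Per2 was at 0.24 with a wide interval of -1.04 to 1.51. Its control ZT18 livers read 36.3 and 74.0 CPM, and without the first of these its value was -0.19. Per3 was at 0.57, Cry2 at -0.11 and Rora at -0.58. The repressors Bhlhe40, Bhlhe41 and Ciart were at -0.02, 1.36 and -0.39, the kinases Csnk1d and Csnk1e, which phosphorylate PER proteins, at 0.02 and 0.53, and the ubiquitin ligase subunit Fbxl21 at -0.35.

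**Figure D1:**
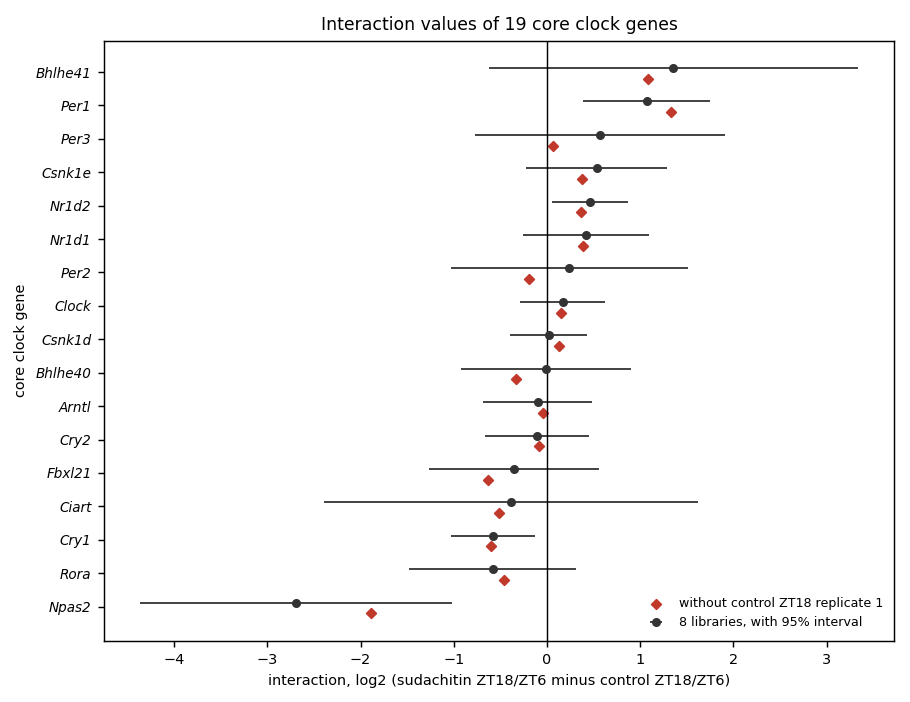
Interaction value (x axis, log2) of each of 17 core clock genes (y axis), ordered by value. Black points with 95% intervals are from 8 libraries, and red diamonds are the values without control ZT18 replicate 1; intervals clear 0 for Per1 (1.07), Nr1d2 (0.46), Cry1 (-0.58) and Npas2 (-2.69), none of which passed over all genes.

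Clock output genes, those driven directly by the loop or by its PAR bZIP factors, had 16 of 23 values above 0 and a median of 0.24 (17 and 0.17 without control ZT18 replicate 1, and medians of 0.37 without control ZT18 replicate 2 and 0.54 without sudachitin ZT6 replicate 1). None passed, and 2 positive and 1 negative lay at an unadjusted p under 0.05, beside 2.16% and 1.62% of all transcripts. Alas1, which catalyses the first step of heme synthesis, was at 1.88 (95% interval 0.21 to 3.55, antisense partner 4930500F10Rik), and at 1.1 without sudachitin ZT18 replicate 1. Its sudachitin ZT18 livers, at 505 and 210 CPM, were above every other liver, and the highest of the others was a control ZT18 liver at 193 CPM. Nmrk1, a kinase of NAD synthesis from nicotinamide riboside, was at 0.61 (0.03 to 1.19), and at 0.37 without control ZT18 replicate 1. Hlf, itself a PAR bZIP factor, was at -0.45 (-0.83 to -0.08), with 46.6 and 48.7 CPM at ZT6 and 63.0 and 65.0 at ZT18 in control livers against 61.1 and 54.0 at ZT6 and 57.3 and 55.5 at ZT18 in sudachitin livers. Control times of Hlf were apart and sudachitin times overlapped.

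Genes of the unfolded protein response had mostly positive values. Of the 25 tested, 23 had interaction values above 0, with a median of 0.53 beside -0.004 over all genes. None passed over all genes by edgeR, and DESeq2 called 1, Xbp1. At an unadjusted p under 0.05 there were 13 of 25, all positive, beside the 2.16% of all genes given above. In 13 of 25 all 4 sudachitin ratios were above all 4 control ratios, beside 7.32%. The list was chosen with earlier results of these data known, so these counts are a description. The genes were lower at ZT18 than at ZT6 in most cases: the log2 ratio of ZT18 to ZT6 was below 0 for 22 of 25 in control livers, with a median of -1.0, and for 16 of 25 in sudachitin livers, with a median of -0.33.

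Many known targets of this response carry a short element next to their start. The ER stress response element binds ATF6 and XBP1 together with the factor NF-Y, and it has the letters CCAAT, then 9 bases of any kind, then CCACG. A second form, ERSE-II, has ATTGG, 1 base and CCACG. Both were searched on both strands in RefSeq promoter windows of mouse build GRCm38.p6, from 250 bases before to 50 after the start. Of the 25 list members 22 had a window; 8 of these held the first form and 2 others the second. Over all 32851 windows the shares were 0.119% (39 windows) and 0.0365% (12 windows), and the list was itself drawn from known targets of the pathway. The windows of 6 genes, shown because they run from the lowest to the highest interaction among members with a match, are printed 5′ to 3′ on the strand of the gene. Capitals mark the ends of the element, which in Calr and Creld2 lies on the opposite strand and so reads CGTGG, 9 bases, ATTGG.
Canx: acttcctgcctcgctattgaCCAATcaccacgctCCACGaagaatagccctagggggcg
Herpud1: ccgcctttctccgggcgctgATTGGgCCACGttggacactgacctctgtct
Calr: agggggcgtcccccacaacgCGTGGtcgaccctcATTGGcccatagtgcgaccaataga
Hspa5: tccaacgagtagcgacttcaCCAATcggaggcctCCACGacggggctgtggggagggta
Syvn1: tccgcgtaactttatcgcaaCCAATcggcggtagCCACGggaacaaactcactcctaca
Creld2: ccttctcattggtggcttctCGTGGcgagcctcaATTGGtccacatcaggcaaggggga
They lie at chr11:50325780-50325838 on the minus strand (Canx), chr8:94386357-94386407 (Herpud1), chr8:84847055-84847113 on the minus strand (Calr), chr2:34772005-34772063 (Hspa5), chr19:6046512-6046570 (Syvn1) and chr15:88819500-88819558 (Creld2), upstream of the RefSeq starts. Interaction values had a median of 0.55 (0.29 to 1.25) over the 10 members with a match and 0.49 (-0.05 to 2.06) over the 12 without one. The ranges overlapped, and a match describes the letters only.

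Xbp1, the transcription factor made by IRE1-dependent splicing, had the smallest p of the list. Control livers read 156 and 171 CPM at ZT6 and 93.9 and 88.0 at ZT18, and sudachitin livers 121 and 139 at ZT6 and 130 and 148 at ZT18. Control livers were lower at ZT18 without overlap, whereas the sudachitin times overlapped. The interaction was 0.95 (95% interval 0.53 to 1.37), with an edgeR quasi-likelihood adjusted p of 0.879, and it ranged from 0.84 to 1.05 when each library was left out. Gene counts of this kind do not separate the spliced from the unspliced form of its mRNA. The gene lies at chr11:5520995-5525242 on GRCm38.

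Among the chaperones, Hspa5, which encodes BiP, had 901 and 1302 CPM at ZT6 and 531 and 417 at ZT18 in control livers, and 792 and 899 at ZT6 and 598 and 723 at ZT18 in sudachitin livers. Control ZT6 replicate 2 was the highest and control ZT18 replicate 2 the lowest of the 8. The interaction was 0.86 (95% interval 0.20 to 1.52). Hyou1, its nucleotide exchange factor, was at 1.01. Values of the other chaperones were 0.52 for Hsp90b1 (GRP94), 0.58 for the lectin chaperone Calr and 0.29 for its relative Canx. The disulfide isomerases Pdia3, Pdia4 and Pdia6 were at 0.53, 0.56 and 0.51, and the J proteins Dnajb11, Dnajc3 and Dnajb9 at 0.65, 0.35 and 0.25. Of these genes Canx, Pdia6, Dnajc3 and Dnajb9 had an unadjusted p above 0.05.

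Other stress-induced proteins that are secreted or stay in the lumen had values near or above 1. Sdf2l1 was at 1.49, Creld2 at 1.25 and Manf at 0.99, and the mouse-to-mouse ratios of Sdf2l1 and Manf overlapped between treatments. Of the degradation machinery, Syvn1, the ubiquitin ligase HRD1, was at 1.17 (antisense partner Mrpl49), and its partners Herpud1 and Sel1l at 0.49 and 0.46, with intervals that held 0. Chac1, an enzyme that degrades glutathione and a target of the ATF4 arm, was at 2.06 (95% interval 0.23 to 3.89), with at most 9.07 CPM. The other genes of that arm had intervals that held 0: Asns, the asparagine synthetase, was at 1.5 (-1.47 to 4.46, with at most 3.01 CPM), Ddit3 (CHOP) at 0.37, Atf4 at 0.10, Trib3 at 0.08 and Atf3 at -0.05. Atf6 was at -0.06.

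The number of small p-values depended on single libraries, while the sign of most values did not. Control ZT6 replicate 2 was the highest of the 8 libraries in 18 of the 25 genes, and control ZT18 replicate 2 was the lowest in 18. Without control ZT18 replicate 1 the list had 23 values above 0 and a median of 0.63. Without control ZT6 replicate 2, 22 values lay above 0 and the median was 0.37. The median was 0.49 without control ZT18 replicate 2 and 0.54 without sudachitin ZT6 replicate 1. It was 0.59 without sudachitin ZT6 replicate 2 and 0.53 without sudachitin ZT18 replicate 2. In all of these fits except the first, fewer members had an unadjusted p under 0.05 than with 8 libraries. The fewest were left without control ZT6 replicate 2. The share of all transcripts at that p also changed from fit to fit. Over all 8 ways of leaving out a library, 21 to 24 values were above 0, with medians of 0.37 to 0.67. Without control ZT6 replicate 2 the values were 0.57 for Hspa5, 0.52 for Hyou1, 0.64 for Sdf2l1, 0.57 for Creld2, 0.59 for Manf, 0.46 for Syvn1 and 0.33 for Dnajb11, each at least 1.5 times smaller than with 8 libraries. The part of single mice in the pattern was not tested.

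**Figure D2:**
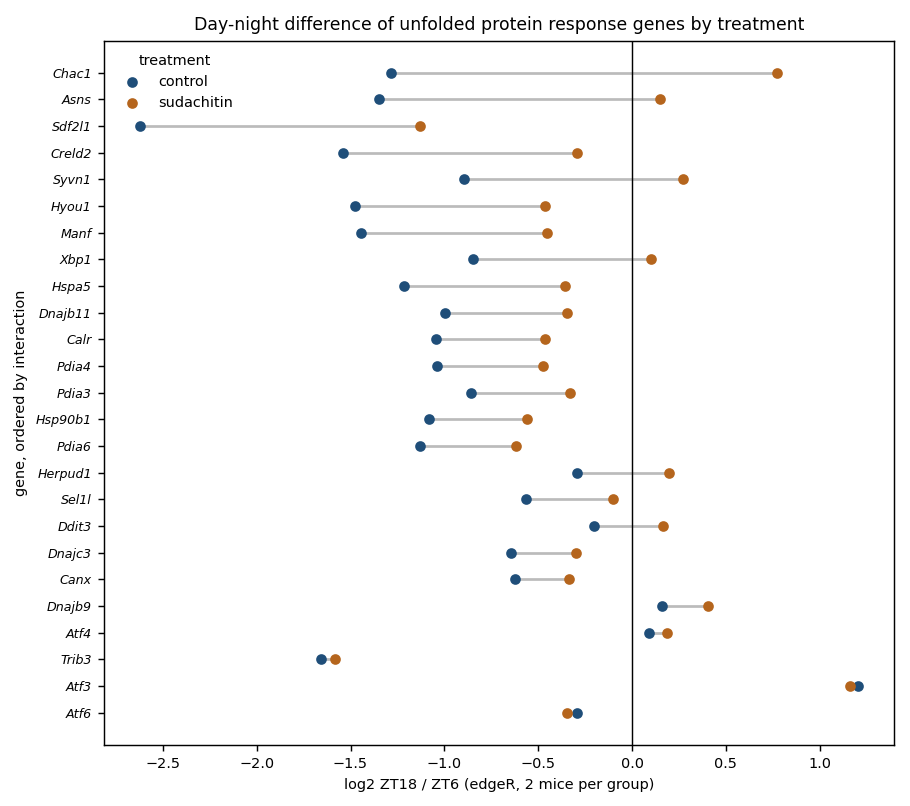
Log2 ratio of ZT18 to ZT6 (x axis) for each of 25 unfolded protein response genes (y axis, ordered by interaction), in control (blue) and sudachitin (orange) livers, 2 mice per group, joined by a grey line whose length is the interaction. The orange point lies to the right of the blue one in 23 of 25 genes, most of all in Chac1 (2.06), and not in Atf3 (-0.05) and Atf6 (-0.06).

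Genes of insulin, feeding and growth hormone signalling had 20 of 24 values above 0 and a median of 0.35. None passed by edgeR, DESeq2 called Irs2, and 5 positive values and no negative one had an unadjusted p under 0.05, beside 2.16% and 1.62% of all transcripts. Without control ZT18 replicate 1 these were 19 values above 0, a median of 0.29, and 6 positive and 1 negative at an unadjusted p under 0.05. Leaving out any 1 library gave medians of 0.14 (without sudachitin ZT18 replicate 1) to 0.40, and 0.19 without control ZT6 replicate 1.

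Irs2, an adaptor of the insulin receptor whose gene hepatic insulin action represses, had 16.6 and 18.4 CPM at ZT6 and 15.8 and 15 at ZT18 in control livers, and 12.9 and 14 at ZT6 and 41.0 and 25.1 at ZT18 in sudachitin livers. Both sudachitin ZT18 livers were above all 6 others, and both sudachitin ZT6 livers were below all others. The interaction was 1.48 (95% interval 0.78 to 2.17), and 1.07 to 1.79 when each library was left out. Its antisense partner is 9530052E02Rik, and it lies at chr8:10984681-11008458.

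Igfals encodes the acid-labile subunit that holds IGF-1 in the circulation. It read 102 and 99.3 CPM at ZT6 and 76.9 and 83.0 at ZT18 in control livers, and 82.9 and 85.8 at ZT6 and 105 and 119 at ZT18 in sudachitin livers. The order of the times was opposite in the treatments, with no overlap within either, and the interaction was 0.75 (95% interval 0.36 to 1.13). Igf1 itself was at 0.51 (-0.09 to 1.11).

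Socs2, a feedback inhibitor of growth hormone signalling, varied between mice of a group. Control livers had 26.7 and 9.61 CPM at ZT6 and 5.69 and 3.51 at ZT18, and sudachitin livers 1.35 and 12.9 at ZT6 and 26.2 and 27.2 at ZT18. The interaction was 3.88 (95% interval 1.38 to 6.38) and ranged from 2.97 to 6.26 with 1 library left out. Igfbp1, a binding protein of IGFs that insulin represses, was at 1.68 (0.04 to 3.32), with sudachitin ZT18 livers at 126 and 61.2 CPM above the other 6 (2.76 without control ZT18 replicate 1), and Fos, an immediate-early gene, at 1.66 with at most 1.54 CPM. The receptors and the other adaptor had intervals that held 0, at 0.16 for Insr, 0.03 for Ghr and -0.31 for Irs1.

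Leaving out genes with provisional names, the 10 with the smallest p among positive values were Adck5, Etfbkmt, Rapgef4, Mcm10, Arhgef26, Smad9, Xbp1, Cdc42ep5, Nrp1 and Irs2. In all of them except Xbp1 the 4 control ratios were below 0 and the 4 sudachitin ratios above 0, and in all 10 every sudachitin ratio exceeded every control ratio. Their values were 0.87 to 3.19 and their adjusted p-values by edgeR's quasi-likelihood test ran from 0.623 to 0.974. As they were picked by p, their small error and the separation of their ratios are properties of the choice. Over all tested transcripts, 7.32% had every sudachitin ratio above every control ratio.

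Etfbkmt encodes the lysine methyltransferase of the electron transfer flavoprotein beta subunit, in the mitochondrion. It read 25.4 and 34.6 CPM at ZT6 and 16.3 and 14.5 at ZT18 in control livers, and 20.8 and 13.2 at ZT6 and 37.8 and 32.3 at ZT18 in sudachitin livers. Each treatment separated its times, in opposite order. The interaction was 2.01 (95% interval 1.27 to 2.74, chr6:149141513-149151171).

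Mcm10, a replication initiation factor, read 55.8 and 67.0 CPM at ZT6 and 24.7 and 30.3 at ZT18 in control livers, and 54.8 and 48.3 at ZT6 and 57.0 and 55.1 at ZT18 in sudachitin livers. The 2 control ZT18 livers were below the other 6, which read 48.3 to 67.0 CPM, and the interaction was 1.28 (0.80 to 1.76, chr2:4989714-5012344).

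Smad9, a receptor-regulated SMAD of BMP signalling, read 8.56 and 6.34 CPM at ZT6 and 1.79 and 5.76 at ZT18 in control livers, and 2.77 and 2.86 at ZT6 and 13.5 and 12.0 at ZT18 in sudachitin livers. The interaction was 3.19 (1.79 to 4.59), 2.55 without control ZT18 replicate 1 and 4.23 without control ZT18 replicate 2. The gene lies at chr3:54755582-54801257.

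Rapgef4 encodes EPAC2, an exchange factor for RAP that cAMP activates, and overlaps the antisense gene Rapgef4os2. It was at 53.0 and 53.9 CPM at ZT6 and 45.6 and 45.8 at ZT18 in control livers, and at 44.1 and 40.0 at ZT6 and 72.8 and 90.9 at ZT18 in sudachitin livers. Both sudachitin ZT18 livers were above the other 6, and the interaction was 1.19 (0.75 to 1.62). Adck5, a putative mitochondrial kinase that overlaps Cpsf1, was at 1.16 (0.75 to 1.57), with 21.7 and 21.2 CPM against 12.9 and 13.2 in control and 20.5 and 17.3 against 25.8 and 25.6 in sudachitin livers for ZT6 against ZT18. The rho exchange factor Arhgef26 was at 0.87 (antisense partner 9330121J05Rik), the CDC42 effector Cdc42ep5 at 2.23 with at most 7.11 CPM, and Nrp1, a co-receptor for semaphorins and VEGF, at 0.88.

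DESeq2's 12 calls hold 6 of these genes, namely Etfbkmt, Rapgef4, Mcm10, Smad9, Xbp1 and Irs2. Among the other 6, Angptl4 is a PPAR-alpha target that inhibits lipoprotein lipase. It read 71.8 and 59.2 CPM at ZT6 and 81.4 and 51.9 at ZT18 in control livers, and 42.1 and 54.1 at ZT6 and 166 and 106 at ZT18 in sudachitin livers. Both sudachitin ZT18 livers were above the other 6, and the interaction by edgeR was 1.47. D230025D16Rik, a protein-coding gene with a provisional name, had the smallest interaction p of these calls by edgeR. It read 47.9 and 45.6 CPM at ZT6 and 32.9 and 31.2 at ZT18 in control livers, and 34.1 and 38.9 at ZT6 and 58.4 and 57.0 at ZT18 in sudachitin livers. The order of the times was opposite in the treatments without overlap, and the interaction was 1.21 (95% interval 0.83 to 1.58, antisense partner B3gnt9). Keg1 was at 1.43, Plcxd2 at 1.68 and Gpcpd1, a glycerophosphocholine phosphodiesterase, at 1.55, and the remaining call was the predicted transcript Gm2788. These calls other than Angptl4 were singled out after their values were seen.

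**Figure D3:**
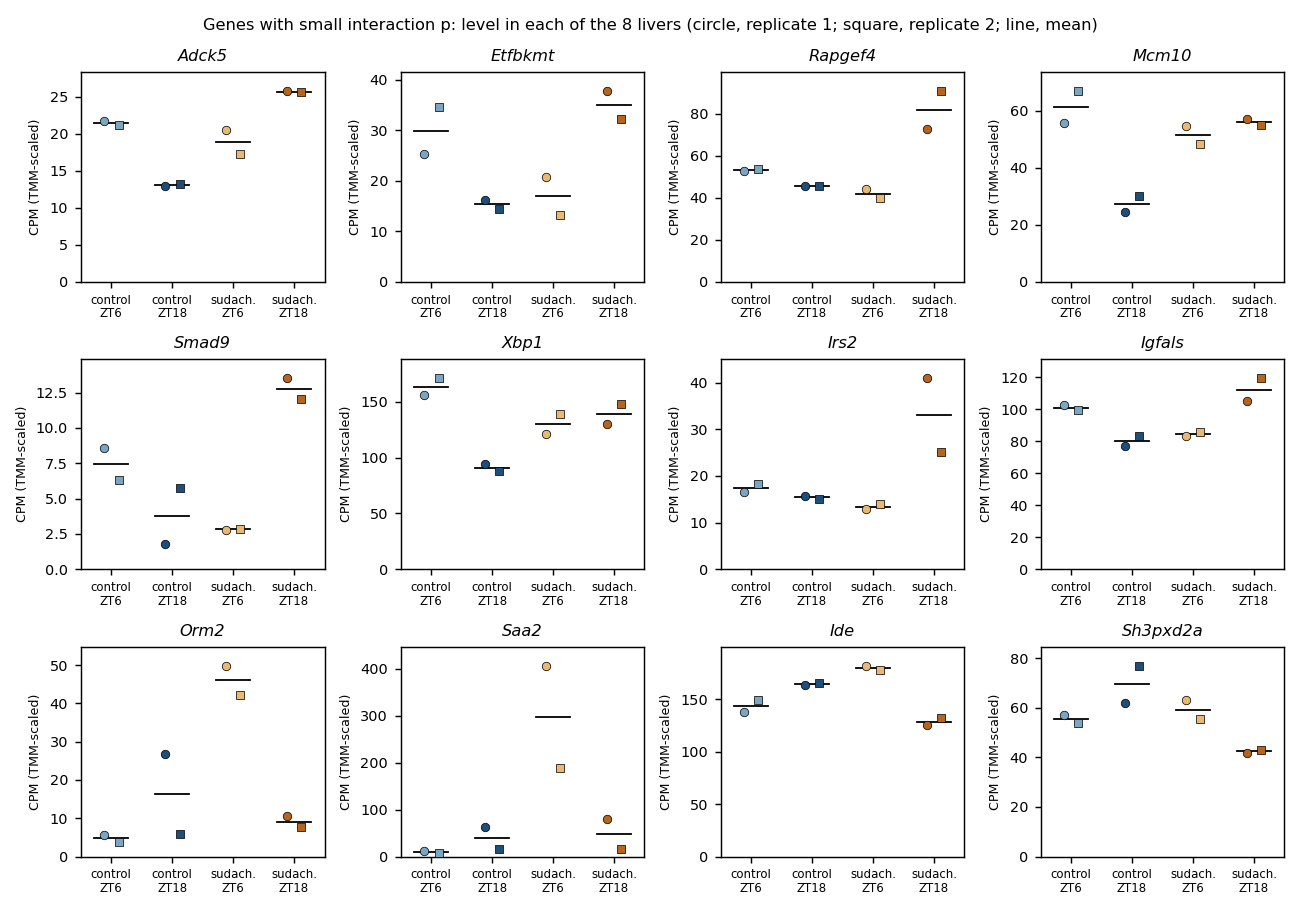
Level in CPM (y axis, linear from 0) of 12 genes in each of the 8 livers, by group (x axis). Circles are replicate 1, squares replicate 2 and lines the mean of the 2 mice; in Irs2 and Rapgef4 both sudachitin ZT18 livers lie above the other 6, and in Orm2 and Saa2 both sudachitin ZT6 livers do.

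By the same rule, the 10 with the smallest p among negative values were Orm2, Desi2, Serpinb1a, Ide, Limd2, Hamp2, Arrdc4, Saa2, Slc35g1 and Sh3pxd2a, with values of -0.68 to -4.84. All 4 sudachitin ratios were below all 4 control ratios in each, beside 6.61% of all transcripts. This separation, too, is a property of picking by p. Ide encodes the insulin-degrading enzyme. It read 138 and 149 CPM at ZT6 and 163 and 165 at ZT18 in control livers, and 182 and 177 at ZT6 and 125 and 132 at ZT18 in sudachitin livers. The order of the times was opposite in the treatments without overlap, and the interaction was -0.68 (95% interval -1.04 to -0.32, chr19:37268743-37330613).

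Arrdc4, an arrestin-domain protein that restrains glucose uptake, read 7.27 and 7.97 CPM at ZT6 and 10.5 and 10.7 at ZT18 in control livers, and 9.34 and 9.82 at ZT6 and 7.11 and 5.17 at ZT18 in sudachitin livers. Its interaction was -1.12 (-1.73 to -0.50). Sh3pxd2a, a scaffold of podosomes, was at -0.80 and Hamp2, a hepcidin gene with the antisense partner Gm44662, at -2.19. Desi2, Serpinb1a, Limd2 and Slc35g1 were at -0.69, -1.53, -0.91 and -1.09.

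Orm2 and Saa2 belong to the acute phase proteins, which hepatocytes secrete in inflammation. Saa2 read 11.1 and 6.54 CPM at ZT6 and 63.6 and 16.6 at ZT18 in control livers, and 406 and 188 at ZT6 and 79.6 and 15.4 at ZT18 in sudachitin livers. Both sudachitin ZT6 livers were above the other 6, and the ZT18 mice of the 2 treatments overlapped. The interaction was -4.84 (95% interval -7.50 to -2.18), and -3.56 without control ZT18 replicate 1. Orm2 was likewise highest in sudachitin ZT6 livers, with 49.8 and 42.3 CPM there, 3.92 to 5.54 in control ZT6 livers and 5.76 to 26.7 at ZT18, and an interaction of -4.14 (-5.96 to -2.31), or -2.63 without control ZT18 replicate 1. Saa1 and Saa2, like Orm1, Orm2 and Orm3, are near-identical copies among which reads may be split wrongly.

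Over the 29 acute phase genes 12 values lay above 0 and the median was -0.13, and none passed. Small p-values lay on both sides. Negative at an unadjusted p under 0.05 were 6 genes, beside 1.62% of all transcripts, namely Orm2, Saa2, Saa1 (-3.70), Orm3 (-2.84), Lcn2 (-3.39), which encodes a siderophore-binding protein, and Orm1 (-0.56). Saa1 was at -2.12, Orm3 at -1.76 and Lcn2 at -1.55 without control ZT18 replicate 1. Positive were 3, beside 2.16%, namely Cebpb (0.70, antisense partner Tmem189), a transcription factor of this program, Fgg (0.53, antisense partner Gm30097), the fibrinogen gamma chain, and Stat3 (0.46), the transducer of IL-6 signals. Without control ZT18 replicate 1, 16 of 29 values lay above 0, the median was 0.16, and 3 positive and 4 negative values were at an unadjusted p under 0.05. The median was -0.50 without sudachitin ZT18 replicate 1 and 0.13 without sudachitin ZT18 replicate 2. Markers of Kupffer cells and macrophages, counted as 17 genes, were read in the same libraries: their sum was 219 and 249 CPM at ZT6 and 336 and 205 at ZT18 under PBS, against 289 and 425 at ZT6 and 290 and 265 at ZT18 under sudachitin. Their interaction values were below 0 in 14 of 17 with a median of -0.59, and in 11 of 17 with a median of -0.11 without control ZT18 replicate 1. Of 8 neutrophil markers 6 stayed under 1 CPM in every library. The part of these cells in the acute phase values was not tested.

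The medians of the cell cycle and sex-biased lists moved most in size when control ZT18 replicate 1 was left out. Among 26 cell cycle genes, 24 values lay below 0. The median was -1.16, with 8 at an unadjusted p under 0.05, all negative, beside 1.62% of all transcripts. Many members had low counts. With at least 5 CPM in 2 libraries 9 were tested, with a median of -0.73 and 1 at an unadjusted edgeR p under 0.05. Control ZT18 replicate 1 was the highest of the 8 libraries in 20 of the 26, and without it 15 of 26 were below 0 and the median was -0.13. The median was -1.80 without control ZT18 replicate 2. Cdk1, the mitotic kinase, was at -3.03 with 8 libraries and -2.17 without that one, but all 8 livers were between 0.43 and 2.90 CPM. Mki67, the Ki-67 antigen, was at -2.34 and, without that library, -1.65. Cdc20 and Plk1, which drive the exit from and entry into mitosis, were at -3.64 and -3.70 (-2.38 and -2.50 without that library). Counts were low here too, with 1.17 to 5.69 CPM for Mki67 and 0.26 to 2.62 CPM for Cdc20. Rrm2, the small subunit of ribonucleotide reductase, differed in that both control ZT18 livers were the highest, at 11.0 and 14.4 CPM, against 4.71 to 9.40 in the other 6, and its value was -1.09, or -1.27 without control ZT18 replicate 1.

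Male-biased liver genes, which the male pattern of growth hormone pulses maintains, had 22 of 23 values above 0 and a median of 1.01. Control ZT18 replicate 1 was the lowest of the 8 libraries in 19 of the 23. The median was 0.34 with 16 of 23 above 0 without it, and 2.44 with 23 of 23 above 0 without control ZT18 replicate 2. With 8 libraries, 2 of 23 lay at an unadjusted p under 0.05, beside 2.16% of all transcripts. Slco1a1, an organic anion transporter, read 26.7 CPM in control ZT18 replicate 1 and 325 to 492 CPM in the other 7 livers, and its value was 1.24 with 8 libraries and 0.34 without that one. Of the 22 genes of the female-biased list 12 were tested. Of these, 11 had negative values and the median was -1.60 (10 and -0.70 without control ZT18 replicate 1). With at least 5 CPM in 2 libraries 7 were tested, with a median of -1.90. Control ZT18 replicate 1 was the highest of the 8 libraries in 7 of the 12. Cyp2b9 read 309 CPM in that library and 0.35 to 26.5 CPM in the others, and its value was -8.33, or -3.45 without it. Nudt7, a peroxisomal hydrolase of the male-biased list, was at 1.23 (0.31 to 2.15), and Cyp4a12a, an arachidonic acid hydroxylase with the near-identical copy Cyp4a12b, at 1.91 (0.46 to 3.37). In the female-biased list Fmo2 was at -1.12 (-2.08 to -0.16), and at -0.59 without control ZT18 replicate 1.

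**Figure D4:**
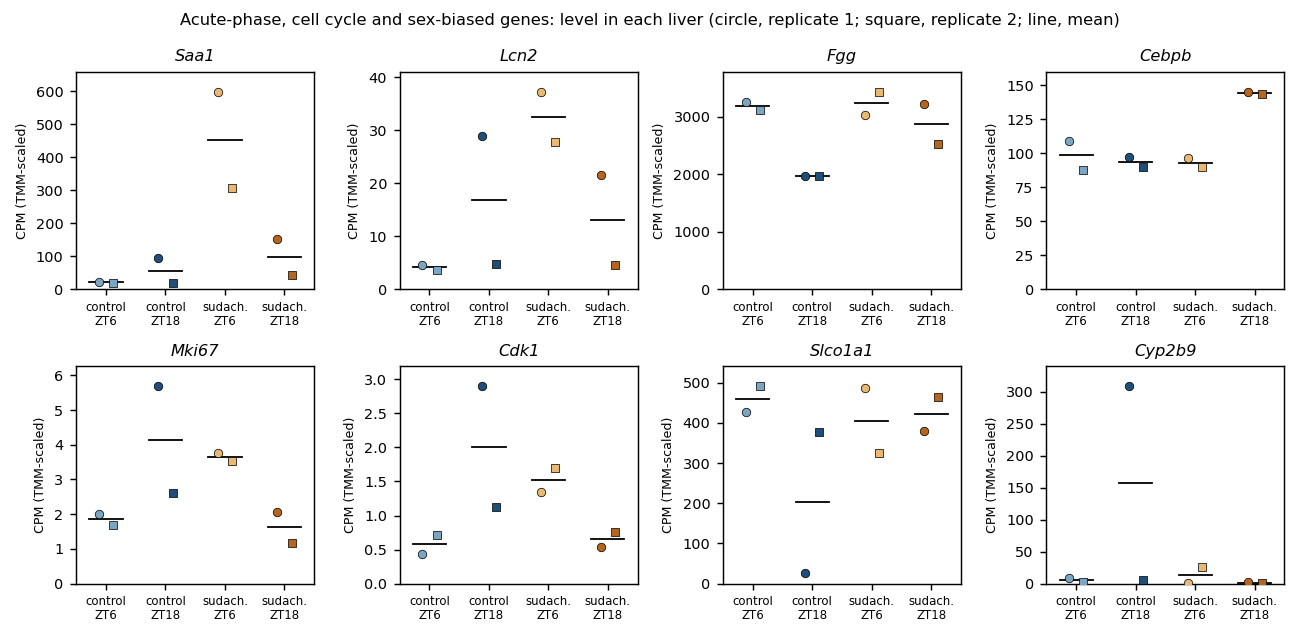
Level in CPM (y axis, linear from 0) of acute phase genes (Saa1, Lcn2, Fgg, Cebpb), cell cycle genes (Mki67, Cdk1) and sex-biased genes (Slco1a1, Cyp2b9) in each of the 8 livers, by group (x axis); circles are replicate 1, squares replicate 2, lines means. Control ZT18 replicate 1 lies far from its partner in Slco1a1 (26.7 against 378 CPM) and Cyp2b9 (309 against 5.34 CPM), while the control ZT18 pairs of Fgg and Cebpb lie close together.

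Metabolic lists had medians closer to 0. Fatty acid and triglyceride synthesis had 8 of 22 values above 0 and a median of -0.13. Without control ZT6 replicate 1 these were 4 and -0.38, and without control ZT6 replicate 2 they were 13 and 0.07. Srebf1, the SREBP-1 gene that insulin induces, was at -1.20 (95% interval -2.20 to -0.20), with 287 and 488 CPM at ZT6 and 467 and 610 at ZT18 in control livers against 552 and 321 at ZT6 and 237 and 291 at ZT18 in sudachitin livers. Control times overlapped, sudachitin times did not, and part of the count may belong to the antisense gene Rai1. Without sudachitin ZT6 replicate 1 its value was -0.77. Lpin2, a phosphatidate phosphatase, was at 0.70 (0.07 to 1.33), and at 0.46 without control ZT18 replicate 2.

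Fatty acid oxidation and PPAR-alpha targets had 14 of 30 values above 0 and a median of -0.02. Without control ZT18 replicate 1, the highest of the 8 libraries in 26 of the 30, these were 26 and 0.25. Without control ZT18 replicate 2 they were 4 and -0.27. Genes of lipid droplets, storage and uptake had 10 of 22 above 0 and a median of -0.19 (15 and 0.11 without control ZT18 replicate 1). Vldlr of this list, a receptor for triglyceride-rich lipoproteins, was at -2.56 (-4.27 to -0.84). Its counts were low, from 0.59 to 6.86 CPM. Control ZT18 replicate 1 was its highest library, and its value was -1.99 without that one. Lpl, lipoprotein lipase, was at -1.09 (-0.51 without control ZT18 replicate 1) and Lipe, hormone-sensitive lipase, at 0.59.

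Gluconeogenesis, glycolysis and glycogen genes had 10 of 28 above 0 and a median of -0.05, or -0.10 to 0.03 with 1 library left out. At an unadjusted p under 0.05 lay 2 on either side, beside 2.16% and 1.62% of all transcripts. Ppp1r3g, a glycogen-targeting subunit of protein phosphatase 1, read 0.86 and 0.39 CPM at ZT6 and 0.56 and 0.14 at ZT18 in control livers, and 0.49 and 0.27 at ZT6 and 4.03 and 1.94 at ZT18 in sudachitin livers. Both sudachitin ZT18 livers were above the other 6, at low counts, and the interaction was 3.67 (1.40 to 5.95). Its relative Ppp1r3c was at -0.90 (-1.62 to -0.19) and Ugp2, which makes UDP-glucose, at -0.53 (-0.91 to -0.15). Pfkfb1, the liver isoform that sets fructose 2,6-bisphosphate, was at 0.60 (0.13 to 1.06).

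Cytochrome P450 families and drug metabolism had 13 of 32 above 0 and a median of -0.47, and 14 of 32 and -0.13 without control ZT18 replicate 1. The 5 members at an unadjusted p under 0.05 were all negative with 8 libraries, beside 1.62% of all transcripts, and the 2 without that library were positive. Gsta1, a glutathione transferase with near-identical copies, read 14.1 CPM in control ZT18 replicate 1 and at most 1.09 CPM elsewhere, with an interaction of -5.70 (-1.82 without it).

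**Figure D5:**
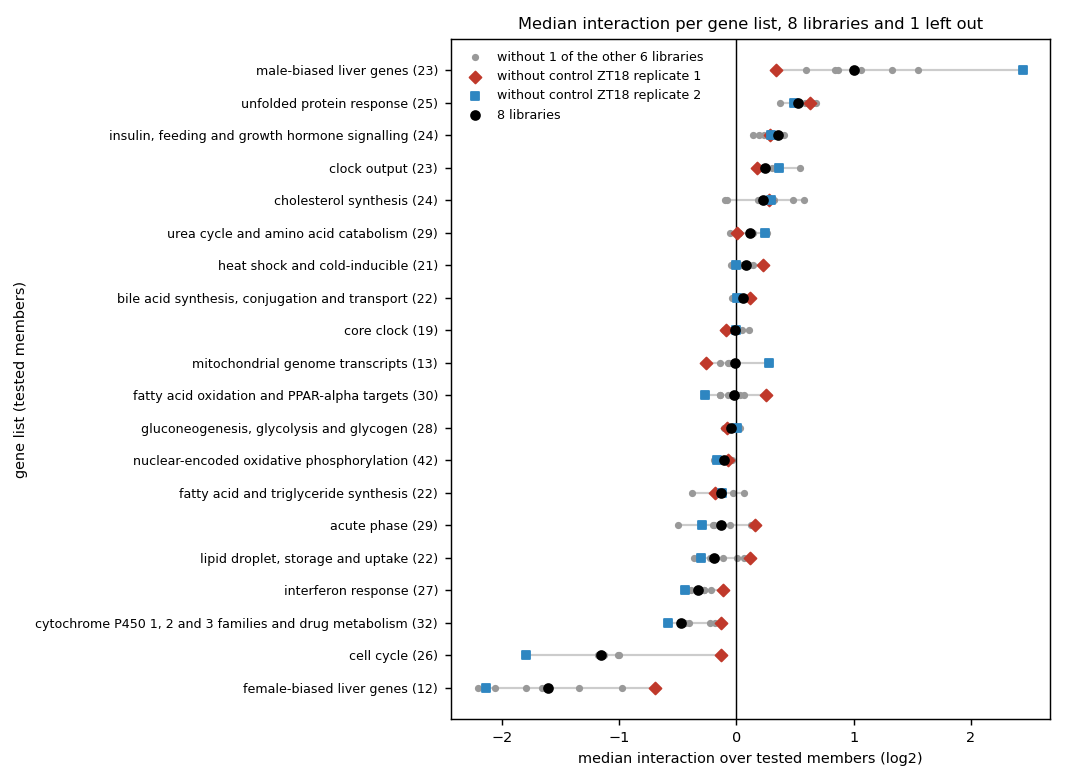
Median interaction (x axis, log2) over the tested members of each of 20 gene lists (y axis, number tested in brackets). Black circles are from 8 libraries, red diamonds without control ZT18 replicate 1, blue squares without control ZT18 replicate 2 and grey points without 1 of the other 6 libraries; the male-biased list runs from 0.34 to 2.44 and the cell cycle list from -1.80 to -0.13, while the unfolded protein response stays between 0.37 and 0.67.

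The fit without control ZT18 replicate 1 named 6 further genes by the same rule, none of which passed. Serpina4-ps1 was at 3.74 there and 4.70 with 8 libraries, and read 1.84 CPM in the library left out and 43.2 in its partner. Nlrp12, a regulator of inflammatory signalling, was at 1.72 against 1.0, and Fbxo21, an F-box protein, at 1.07 against 0.76. On the negative side Etnppl, which degrades phosphoethanolamine, was at -0.83 against -0.57 and Lrtm1 at -1.88 against -1.45, beside Rrm2 above.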

How the data were processed

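Liver poly(A) RNA with an integrity number above 9.0 was read as 150-base pairs without strand, per the labels' protocols. The deposited tables list transcripts of build GRCm38 (mm10). The first holds estimated counts over exons, per the file headers. Of its values 19.7% to 21.9% were not whole but ended in 0.5, and these were rounded up. The other deposited table holds FPKM, used for 1 alternative. Trimmomatic 0.39, STAR 2.7.2a and HOMER are named in the submitters' processing notes without roles. The strand setting and the handling of reads with several positions are not given in the sources used here. Exon counts were 43.6% to 47.8% of the header totals.

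Each sample title names a mouse and gave its group. In R 4.3.3, edgeR 4.0.16 with TMM factors, its default filter by group and 4 group means gave the interaction by the quasi-likelihood F test, with Benjamini-Hochberg adjustment and a threshold of 0.05. The script was tested on simulated data. The SE is the size of the value over the square root of F, and 95% intervals use edgeR's total degrees of freedom (median 8.62). Ratios between single mice add 0.1 CPM. Alternatives were DESeq2 1.42.0, other scalings and filters, a replicate block, leaving out each library, and limma 3.58.1 on log2(FPKM + 0.1) or with voom sample weights.

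Since no gene passed, the rule names the 10 transcripts per direction with the smallest p and at least 5 CPM in a group, 5 per direction without control ZT18 replicate 1, every core clock gene and, for each remaining list, the 4 members of smallest p at most, leaving out predicted and Rik-named genes in the first 2 steps. Other members of the unfolded protein response, insulin, acute phase, cell cycle and sex-biased lists, and most DESeq2 calls, were named after their values were seen. The 20 pathway and 10 cell type lists and the comparison itself were chosen with earlier results of these data known. For 15 symbols with several tested transcripts, lists use the most abundant. Antisense partners come from GENCODE mouse release 21, which held 54890 of the 55421 identifiers. No column was left unassigned. Of the core clock genes, 2 are counted in the list but not reported here.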

Additional observations from a re-analysis of the deposited data

Results flagged for a closer look

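For 28 genes named in the report, all 4 ratios of a ZT18 to a ZT6 mouse lay on one side of 0 in control livers and all 4 on the other in sudachitin livers. Over all 14506 tested transcripts this was so in 224 with control ratios below 0 and in 208 with control ratios above 0. The difference itself is the interaction, which was tested by edgeR's quasi-likelihood test, and none of the 28 passed over all genes. The 28 were named for a small interaction p or after their values were seen, so ratios on opposite sides follow in part from that choice. With control ratios below and sudachitin ratios above 0, the interaction was 1.16 for Adck5, 1.21 for D230025D16Rik, 2.01 for Etfbkmt, 1.19 for Rapgef4, 1.28 for Mcm10, 0.87 for Arhgef26, 3.19 for Smad9, 2.23 for Cdc42ep5, 0.88 for Nrp1, 1.48 for Irs2, 1.43 for Keg1, 1.68 for Plcxd2, 0.75 for Igfals, 3.88 for Socs2, 1.23 for Nudt7 and 0.57 for Cyp27a1, a sterol hydroxylase of bile acid synthesis. With control ratios above and sudachitin ratios below 0, it was -4.14 for Orm2, -0.68 for Ide, -2.19 for Hamp2, -1.12 for Arrdc4, -4.84 for Saa2, -0.80 for Sh3pxd2a, -3.39 for Lcn2, -2.56 for Vldlr, -3.03 for Cdk1, -2.34 for Mki67, -3.64 for Cdc20 and -3.70 for Plk1.

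The margins differed. In Etfbkmt the control log2 ratios ran from -1.25 to -0.64 and the sudachitin ratios from 0.63 to 1.52, in Igfals from -0.41 to -0.26 and from 0.29 to 0.52, and in Ide from 0.13 to 0.26 and from -0.54 to -0.43. In Mcm10 the sudachitin ratios began at 0.01, and in Orm2, Lcn2 and Cdc20 the control ratios began at 0.06, 0.05 and 0.10. No group is large enough for a check of single outlying samples, since each holds 2 mice.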

How the results depend on the processing

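The count of genes called for the interaction was 0 with 8 libraries. It was also 0 with median-of-ratios or library-total scaling, with at least 5 CPM in 2 libraries, with limma on FPKM and with voom weights. DESeq2 gave 12. No filter on low counts gave 259 (147 positive, 112 negative), 257 of them among the transcripts tested with the filter, where edgeR's median total degrees of freedom were 113860 in place of 8.62. Leaving out 1 library gave 0 to 13: 13 without control ZT18 replicate 2 (9 positive, 4 negative; 1744 at an unadjusted p under 0.05), and 0 without any other. The cause was not tested.

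With the replicate number as a replicate block the count was 0 (smallest adjusted p by edgeR 0.15). The numbers are not shown to pair mice: deviations of same-numbered mice correlated between groups at -0.20 to 0.28.

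Of 112 named genes, 12 changed sign when 1 library was left out: Arntl (-0.35 to 0.11), Atf3 (-1.02 to 0.77), Atf4 (-0.095 to 0.32), Atf6 (-0.20 to 0.10), Bhlhe40 (-0.39 to 0.38), Ciart (-1.04 to 0.91), Cry2 (-0.35 to 0.095), Csnk1d (-0.086 to 0.12), Dnajb9 (-0.052 to 0.63), Ghr (-0.067 to 0.12), Per2 (-0.19 to 0.84) and Trib3 (-0.20 to 0.46). Bhlhe40 was 0.0014 with the replicate block, and limma gave -0.040 for Csnk1d and -0.029 for Ghr. The other 100 kept their sign in every alternative run. Many of the named genes were picked for a small p or after their values were seen, so a kept sign follows in part from that choice. Of the alternative list medians, 473 moved by less than the spread between replicates, and the other 5 belong to 4 lists. These were clock output (0.37 and 0.54, above), cytochrome P450 (0.01 with at least 5 CPM), and interferon and cell cycle without control ZT18 replicate 1. The spread comes from the same pairs of mice, so leaving out 1 of them can seldom move a median beyond it. Those 473 are thus no sign of stability. They include the male-biased list, whose median ran from 0.34 to 2.44 with 1 library left out.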

Other observations

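Other lists had few or no members with small p-values. Cholesterol synthesis had 20 of 24 interaction values above 0 and a median of 0.23, with none at an unadjusted p under 0.05, and its median ran from -0.10 without control ZT6 replicate 1 to 0.58 without control ZT6 replicate 2. Control ZT6 replicate 1 was the highest of the 8 libraries in 18 of the 24 genes. Bile acid synthesis, conjugation and transport had 12 of 22 above 0 and a median of 0.06 (-0.04 to 0.12 with 1 library left out). Cyp27a1 was the only member at an unadjusted p under 0.05, and its value was 0.36 without control ZT18 replicate 1. Heat shock and cold-inducible genes had 13 of 21 above 0 and a median of 0.08, with 16 and 0.23 without control ZT18 replicate 1 and 10 and -0.04 without control ZT6 replicate 2. Urea cycle and amino acid catabolism genes had 20 of 29 above 0 and a median of 0.12, with 15 and 0.0045 without control ZT18 replicate 1, 26 and 0.26 without sudachitin ZT6 replicate 1 and 14 and -0.05 without sudachitin ZT6 replicate 2.

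Interferon response genes had 20 of 27 values below 0 and a median of -0.32 (16 and -0.11 without control ZT18 replicate 1). Igtp, an immunity-related GTPase, was at -0.97 and Apol9a at -0.54 (-0.65 and -0.40 without that library). Nuclear-encoded genes of oxidative phosphorylation had 38 of 42 values below 0, but the median was -0.11 and no member had an unadjusted p under 0.05. Control ZT18 replicate 1 was the highest library in 27 of the 42, and 26 were below 0 without it. The 13 transcripts of the mitochondrial genome had a median of -0.02, with -0.26 and all 13 below 0 without control ZT18 replicate 1 and 0.28 and 11 above 0 without control ZT18 replicate 2. Globin and heme genes of red blood cells had 4 of 5 values below 0 and a median of -0.89 (-0.38 without control ZT18 replicate 1). With all libraries, 2 lay at an unadjusted p under 0.05, both negative, beside 1.62% of all transcripts.

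No marker of the other cell types had an unadjusted p under 0.05. Medians were 0.01 over 9 hepatocyte, -0.04 over 11 sinusoidal endothelial, -0.02 over 12 stellate and fibroblast, -0.51 over 5 cholangiocyte, -0.03 over 5 lymphocyte, -0.38 over 3 adipocyte and 0.55 over 2 exocrine pancreas markers, and the 1 neutrophil marker tested was at -0.42. These short lists depended on single libraries: with 1 left out the medians ran from -0.11 to 0.17 for hepatocyte, -0.20 to 0.05 for endothelial, -0.35 to 0.10 for stellate, -1.09 to 0.05 for cholangiocyte, -0.49 to 0.65 for lymphocyte, -0.40 to 0.13 for adipocyte and 0.03 to 1.27 for exocrine pancreas markers.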
